A study of Mus musculus with 24 samples.

Results

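The response of wild-type (WT) macrophages to lipopolysaccharide (LPS) was read from 6 of the 24 RNA sequencing libraries of the series, 3 from WT cells given LPS and 3 from untreated WT control cells. Genes reaching a value of 1 in 3 or more libraries were followed, which kept 18637 of the 43629 gene identifiers. The cells were bone marrow-derived macrophages, which are obtained by culturing marrow precursors, and came from C57BL/6 mice at postnatal week 10. The control group received no stimulus, and LPS dose and hours of exposure are not given in the sources used here. For reference, the comparison was set beside WT cells given interferon gamma (IFNg), and beside control and LPS-treated cells lacking CITED2 (KO), a nuclear protein without a DNA-binding domain that contacts CBP and p300. Each group held 3 libraries. The labels do not say whether these came from separate animals or cultures, so p-values measure only the spread between libraries, which may be technical.

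LPS is the outer membrane glycolipid of Gram-negative bacteria. CD14 hands it to the receptor complex of TLR4 and MD-2, and the adaptor MyD88 then leads to NF-kB and MAP kinases, which drive inflammatory cytokine genes. From endosomes, the adaptors TRAM and TRIF lead to IRF3 and interferon beta, whose own receptor activates STAT2, IRF9 and a large antiviral programme. Inhibitors made in the same response (A20, SOCS proteins, interleukin 10) later restrain it.

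Reads per library ranged from 7818719 to 35227110 in control and from 7921412 to 50223251 with LPS. The shallowest were WT control replicate 3 and WT LPS replicate 1, where 3 reads corresponded to a value of 7.33 and 12.2. Values are normalised read counts, the deposited reads of a gene divided by 1 factor per library. They summed to 18992840 to 19182569 in control and 31791425 to 33267115 with LPS. All 10 macrophage markers checked (Adgre1, Itgam, Csf1r, Cd68, Lyz2, Mpeg1, Cd14, Fcgr1, Mertk and Spi1) had reads, and together they summed to 336143 to 354820.4 in control and 413665 to 421718 with LPS. The 3 defining markers of B cells and the 3 of T and NK cells summed to below 8.16 in each of the 6 libraries. The 3 of dendritic cells summed to 15.8 or less. Sums over the longer marker lists used further below were higher. The 8 B cell markers tested there summed to 4648 to 4853 in control and 3301 to 3480 with LPS. For the 15 T and NK cell markers the sums were 15964 to 17009 and 6708 to 7791. For the 8 dendritic cell markers they were 1064 to 1209 and 7126 to 7599. The 3 erythroid markers, the neutrophil marker Ly6g, the dendritic cell marker Flt3 and the mast cell marker Tpsb2 were at 0 reads. Neutrophil markers, mostly Ngp, summed to 508 to 586 in control and 681 to 740 with LPS, and fibroblast markers to 254 to 318 and 279 to 353; their part in the results was not tested.

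LPS raised 4759 genes, 25.5% of those tested, and lowered 5183, 27.8% (limma on log2(value + 1), Benjamini-Hochberg adjusted p below 0.05). At least 2-fold changes were made by 2639 raised genes (14.2%) and 2988 lowered genes (16%). The rises reached further than the falls. At 16-fold or more, 476 genes were raised (2.55%) and 127 lowered (0.681%), at 100-fold 136 (0.73%) and 7 (0.0376%), and at 1000-fold 22 (0.118%) and 0, all on the log2(value + 1) scale. Protein-coding genes, which were 14167 of the 18637 tested, made up 4324 of the raised and 4687 of the lowered genes.

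**Figure D1:**
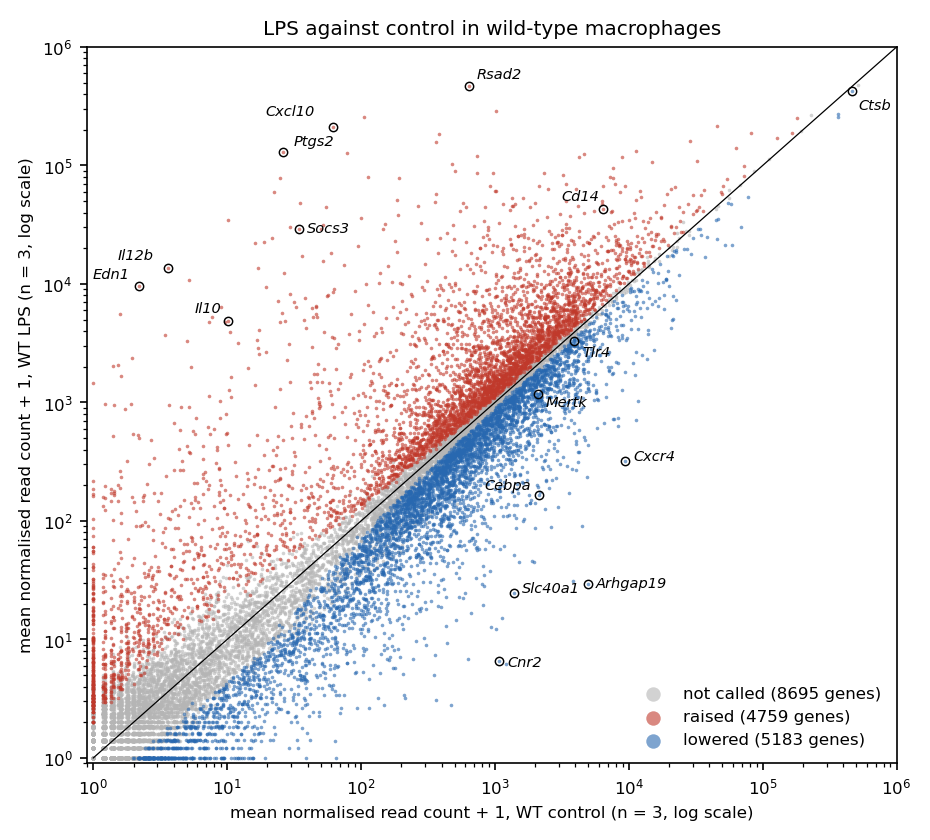
Mean normalised read count plus 1 of each of 18637 genes in 3 WT control (x axis) and 3 WT LPS libraries (y axis), both on log scales, with raised genes in red, lowered genes in blue and the rest in grey. The line marks equal values; Il12b, Edn1 and Il10 lie far above it from a low control level, and Cnr2 and Arhgap19 far below it.

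The balance of rises and falls depended on how libraries were scaled. The deposited factors left the median of all genes at a log2 difference of -0.06. Scaling by total reads moved the differences by a median of -0.75, so that 2478 genes were raised and 9311 lowered; centring each library on its median gene moved them by 0.42, with 6823 raised and 3065 lowered. Quantile normalisation gave 4146 raised and 5784 lowered. The same direction was called under all 4 scalings for 2392 raised and 3064 lowered genes, and these counts are given for each gene group below. Counts of every gene group stand beside the 25.5% raised and 27.8% lowered over all genes tested. Counts near these shares do not set a group apart. The 476 genes raised at least 16-fold held 0.586% ± 0.0309 of reads in control and 20.6% ± 0.483 with LPS (SD, n = 3), and the genes lowered at least 2-fold held 13.1% ± 0.121 and 2.39% ± 0.0364.

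**Figure D2:**
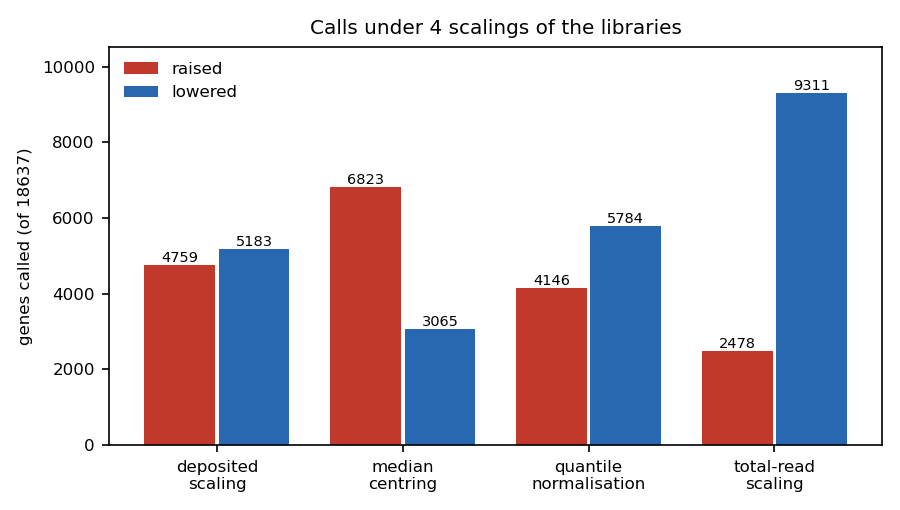
Number of genes called raised (red) and lowered (blue) with LPS under the deposited scaling and 3 other scalings of the same libraries. Lowered genes outnumber raised genes 9311 to 2478 when libraries are scaled by total reads, and raised genes outnumber lowered ones 6823 to 3065 after median centring.

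Read per length of the annotated exons, which allows levels of different genes to be compared, several genes moved to the top of the order with LPS. B2m, the light chain of MHC class I, ranked 1 of all protein-coding genes with LPS and 7 in control. The chemokine gene Ccl3 went from rank 705 to 5, Rsad2, which encodes the antiviral enzyme viperin, from 4807 to 7, and Irg1 (Acod1), the enzyme that makes itaconate, from 8306 to 8. Cxcl10 moved from rank 8942 to 9 and Ccl4 from 1424 to 11. The lysosomal genes Ctss, Ctsd and Psap ranked 2, 3 and 10 with LPS and 3, 1 and 2 in control, and the osteopontin gene Spp1 ranked 4 with LPS and 12 in control.

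Several of the largest rises began from few or no reads in control. Tarm1, an activating receptor of myeloid cells, was 1.62, 0 and 0 in WT control replicates 1 to 3 and 2067, 2136 and 2036 with LPS, a log2 rise of 10.56 ± 0.29 (SE; adjusted p = 3.2e-20). Ifi205, of the interferon-inducible p200 family, went from 5.39, 5.16 and 17.1 to 33630.4, 32377 and 37782 (11.92 ± 0.29, adjusted p = 3.6e-21). The endothelial lipase gene Lipg went from 1.08, 0.645 and 0 to 5772, 5531 and 5519.6 (11.86 ± 0.52, adjusted p = 6.6e-16). The largest rises were drawn only from genes whose LPS and control values did not overlap, so their separation was set by that choice. Irg1 (ENSMUSG00000022126; chromosome 14, 103046977 to 103056573, plus strand) stood at 78.7, 63.8 and 171 in control and 255143, 252528 and 258969 with LPS (11.38 ± 0.199, adjusted p = 5.2e-24).

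Among the largest falls, the GTPase-activating protein gene Arhgap19 dropped from 5135, 4988 and 4643 to 36.7, 20.9 and 27.4 (-7.43 ± 0.12, adjusted p = 1.1e-24). The lysophosphatidic acid receptor gene Lpar5 went from 329, 339.9 and 410.3 to 0, 3.798 and 2.38 (-7.15 ± 0.37), and Bmf, a pro-apoptotic BH3-only gene, from 636, 662 and 596 to 8.15, 5.697 and 3.57 (-6.59 ± 0.38). The largest falls were likewise drawn only from genes whose values did not overlap between the groups. The Ras activator gene Rasgrp3 and Lpin1, a phosphatidate phosphatase of lipid synthesis, fell to means of 29.996 ± 11.98 and 14.2 ± 6.03 from 3845 ± 104 and 1126 ± 80.5 (SD, n = 3 per group). Zfp395, Ccsap, Engase, Chek2 and Vash2 fell by log2 differences of -6.46, -6.71, -6.32, -6.28 and -6.18.

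By absolute loss of value the leading genes were other ones. Sirpa, the inhibitory receptor for CD47, went from 57070.0, 60553 and 60277 to 22053, 21780.3 and 20336 (-1.47 ± 0.05), and Lipa, lysosomal acid lipase, from 69230.1, 69502 and 68122 to 29436, 29771 and 32275 (-1.18 ± 0.06). The groups of 3 did not overlap in either gene, but the share of all genes without overlap is not given here. Statements of this kind, here and below, only describe the values printed. The long noncoding RNA Neat1 went from 52019.8 ± 1363 to 21337 ± 177 (-1.29 ± 0.05). One of the highest entries, the lincRNA Yam1, was 278243, 179934 and 225467 in control and 502083, 190043 and 111535 with LPS, a spread within the LPS group that covered every control value, and it was not called (adjusted p = 0.98).

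Of 25 genes for the TLR4 receptor and its adaptors and kinases, 19 rose and 4 fell (12 and 2 under all 4 scalings); the median log2 was 0.82, against -0.06 for all genes, and 0.06 after scaling by total reads. Cd14, the LPS carrier, went from 6319, 6032 and 6827 to 43739.9, 44208 and 40366 (2.74 ± 0.06, adjusted p = 6.0e-22). Myd88 went from 1119, 1091 and 1194 to 11047, 11690.3 and 12010.2 (3.35 ± 0.05), and Ikbke, a kinase of the interferon arm, from 2122 ± 29.2 to 14431 ± 552. For Cd14 and for Myd88 no LPS value overlapped a control value. Tlr4 was 3927, 4088 and 3622 in control and 3289.7, 2968 and 3681 with LPS, groups that overlapped, at a log2 difference of -0.23 ± 0.09 (adjusted p = 0.038) that became 0.19 after median centring; it was no longer called with the replicate number as a block, with only the 6 libraries fitted, with no filter on low values, or without WT control replicate 1 or 2 or WT LPS replicate 1 or 2. Tab1, a partner of the kinase TAK1, fell by 1.24 on the log2 scale, while its relative Tab2 rose by 2.18.

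Other sensors of microbes rose widely, 20 of 24 (3 fell; 17 and 2 under all 4 scalings; median log2 3.08). Clec4e (Mincle), a receptor for mycobacterial glycolipid, was 776, 733 and 691 in control and 112904, 116293 and 134489 with LPS (7.36 ± 0.08, adjusted p = 2.5e-27). The inflammasome sensor Nlrp3 rose by 6.004, the peptidoglycan sensors Nod2 and Nod1 by 5.81 and 5.08, Tlr2 by 5.296 and the RNA sensor gene Ifih1 by 6.17 on the log2 scale. Tlr13, which reads bacterial ribosomal RNA, went the other way, from 9121, 9704 and 9452 to 1732, 1740.1 and 1911 (-2.39 ± 0.08). Clec7a (Dectin-1), the receptor for fungal glucan, fell as well (-1.01 ± 0.07).

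All 11 NF-kB subunit and inhibitor genes rose, under every scaling, with a median log2 of 3.54. The largest were inhibitors: Nfkbiz went from 525, 499 and 464 to 24381, 23073 and 24279 (5.59 ± 0.07), and Nfkbia from 727, 727 and 642 to 30646, 31579.8 and 30165 (5.46 ± 0.05). Among the DNA-binding subunits Nfkb2 and Nfkb1 rose by 4.51 and 4.08 and Rela by 1.93 on the log2 scale. Immediate early factors were divided, with 13 of 22 raised and 4 lowered (10 and 3 under all 4 scalings; median log2 1.06). The AP-1 partner genes Batf2 and Batf rose by 5.54 and 4.64, and Junb by 3.19. Fos, the classical early gene, was 343, 318 and 318 in control and 273, 317 and 367 with LPS and was not called (adjusted p = 0.84). Jun, Egr1 and Egr2 fell (-0.72, -1.14 and -0.96).

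Of 19 interferon regulatory factor, STAT and Janus kinase genes, 16 rose and 2 fell (14 and 0 under all 4 scalings; median log2 2.03). Irf7, the factor that amplifies interferon production, went from 240.5, 365 and 327 to 24956, 25195 and 21601 (6.28 ± 0.11), and Jak2 from 1187, 1169.8 and 1062 to 45150.3, 44200.0 and 51669 (5.36 ± 0.07). In both genes every LPS value was far above every control value. Stat2 and Irf1 rose by 4.21 and 4.14. Of 22 macrophage lineage factors and identity markers 10 rose and 7 fell (6 and 3 under all 4 scalings); the median log2 of 0.03 became 0.45 after median centring, -0.81 after quantile normalisation and -0.74 after scaling by total reads. Cebpa, a myeloid lineage factor, fell from 2146, 1993 and 2242 to 179, 169 and 149.9 (-3.67 ± 0.103, adjusted p = 6.9e-20), whereas its relatives Cebpb and Cebpd rose by 3.54 and 4.45. Spi1, which encodes the lineage factor PU.1, rose by 1.395. Cx3cr1 was 28.04, 19.99 and 36.6 and 8.15, 26.6 and 13.1 and was not called (adjusted p = 0.29).

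**Figure D3:**
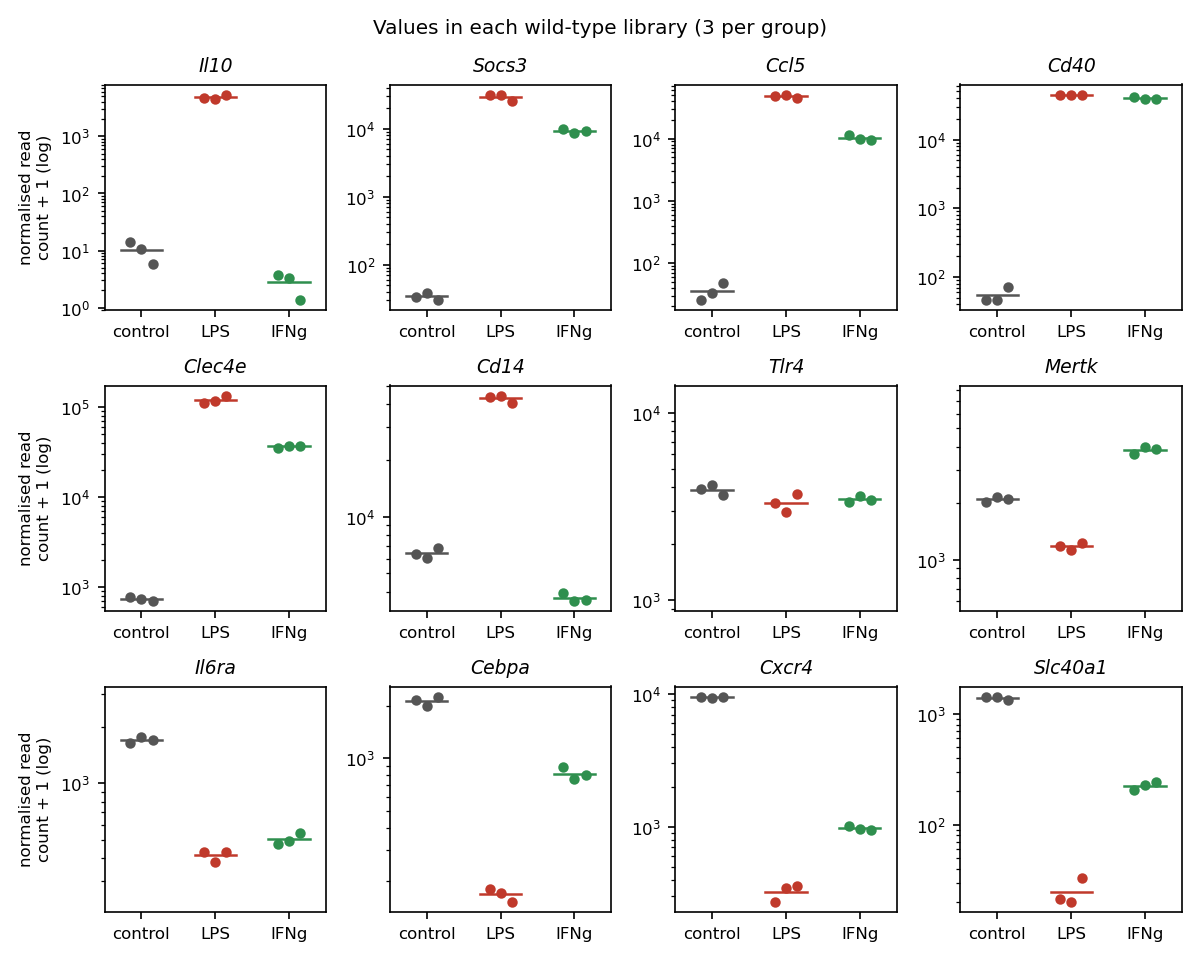
Normalised read count plus 1 (log scale) of 12 genes in each WT library; points are the 3 libraries of the control, LPS and IFNg groups and bars their means. Il10 is high only in the 3 LPS libraries among these 9, Mertk lies below control with LPS and above it with IFNg, and the Tlr4 values of the groups overlap.

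Feedback inhibitors rose together, 25 of 28 under every scaling, with 2 lowered (1 under all 4 scalings); their median log2 of 3.92 is set against -0.06 for all genes. Socs3, which blocks signalling of the interleukin 6 family, was 32.9, 38.05 and 29.3 in control and 31291, 30911 and 25469.9 with LPS (9.73 ± 0.098, adjusted p = 2.3e-28). The anti-inflammatory cytokine gene Il10 went from 12.9, 9.67 and 4.88 to 4672, 4458 and 5352 (8.97 ± 0.48, adjusted p = 3.7e-14). Both genes were low in every control library. Tnfaip3, which encodes the ubiquitin-editing enzyme A20, went from 987, 1054 and 972 to 59805, 60044 and 64165 (5.93 ± 0.05), and Il1rn, the antagonist of the interleukin 1 receptor, from 971 ± 56.1 to 85896 ± 5179. Irak3, a kinase-dead brake on MyD88 signalling, rose by 2.46. Tnfaip8l2 (TIPE2), another brake on Toll-like receptor signalling, fell from 1846, 1837 and 2176 to 758, 694 and 588 (-1.52 ± 0.11).

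Of 36 cytokine and growth factor genes tested (37 on the list; Il36g was too low), 33 rose and 3 fell (31 and 2 under all 4 scalings; median log2 4.90, or 5.08 with the 5 genes at 0 in control taken at the lower bound that 3 reads over the control group give). Il27, a cytokine subunit gene of the interleukin 12 family, went from 4.85, 11.6 and 7.33 to 6571, 6625 and 6035 (9.56 ± 0.23), and Tnfsf10 (TRAIL) from 24.3, 29.02 and 2.44 to 8935, 8649 and 10468 (9.403 ± 0.45). Csf1, the growth factor of macrophages themselves, went from 109 ± 12.5 to 10026 ± 139. Ifnb1, which encodes interferon beta, had no read in any control library and stood at 20.4, 29.8 and 44.03 with LPS (adjusted p = 3.6e-10). The Il1a, Tnfsf9 and Inhba genes rose by 10.17, 6.901 and 6.55. Il16 fell from 418, 431 and 488 to 36.7, 50.6 and 41.7 (-3.35 ± 0.297), and Vegfa by 0.72.

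Chemokine genes held some of the steepest rises. Among 14 CC chemokines 11 rose under every scaling and 2 fell (0 under all 4 scalings), with a median log2 of 6.68. Ccl5 went from 24.3, 32.2 and 46.4 to 47694, 50793 and 45328 (10.45 ± 0.16, adjusted p = 2.7e-25), and the monocyte attractants Ccl2 and Ccl7 from 28.6 ± 6.202 and 17.8 ± 8.39 to 30111 ± 849.8 and 22672 ± 2925. Of 13 CXC and CX3C genes 10 rose (9 under all 4 scalings; median log2 3.87) and none fell; the neutrophil attractants Cxcl1, Cxcl2 and Cxcl3 rose by 9.403, 9.19 and 10.101. Cxcl12, Cxcl14 and Ppbp did not pass, with log2 differences of -0.09, 0.12 and -0.03.

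Of 13 chemokine receptors tested 5 rose and 4 fell (4 and 4 under all 4 scalings), where 25.5% and 27.8% of all genes tested did so. Their median log2 of -0.17 became 0.25 after median centring, and Ackr2 was too low to test. Ccr2, the receptor for Ccl2, fell from 588, 622 and 539.8 to 106, 111 and 123 (-2.35 ± 0.15, adjusted p = 9.2e-13). Cxcr4, which holds cells in the marrow through Cxcl12, fell from 9528, 9369.8 and 9455 to 269, 342 and 356 (-4.88 ± 0.11). In both genes the groups did not overlap. Cxcr3 fell by 2.38, while Ccrl2, a non-signalling receptor that binds chemerin, rose from 1412 ± 22.7 to 46977 ± 445.

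Of 33 cytokine receptor genes 24 rose and 8 fell (19 and 5 under all 4 scalings; median log2 1.48). Cd40, through which T cells activate macrophages, went from 45.8, 45.1 and 70.8 to 44812, 44362 and 43734 (9.69 ± 0.13, adjusted p = 4.3e-26). Il15ra and Il13ra1 rose by 6.04 and 4.05, and Tnfrsf1b, a receptor for TNF, from 14844 ± 321 to 107991 ± 2419. Both chains of the interleukin 6 receptor fell: Il6ra went from 1631, 1769 and 1697 to 428, 379.8 and 431 (-2.04 ± 0.07), and Il6st from 7666, 8279.9 and 8189.5 to 2173, 2251 and 2177 (-1.87 ± 0.05). The groups did not overlap. The death receptor gene Tnfrsf21 and Tgfbr1 fell by log2 differences of -2.54 and -1.02. Csf1r, the receptor for Csf1, was 42626, 45407 and 47332 in control and 34845, 36229.9 and 32814 with LPS, a log2 difference of -0.38 ± 0.06 that turned to 0.04 after median centring.

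G protein-coupled receptor genes split into large rises and large falls, 17 and 8 of 32 (13 and 7 under all 4 scalings), with a median log2 of 0.70 that became -0.05 after scaling by total reads. The formyl peptide receptor gene Fpr2 went from 6.47, 3.22 and 2.44 to 2955, 3134 and 3729.7 (9.42 ± 0.24), and Gpr84, a receptor for medium-chain fatty acids, from 9.17, 9.67 and 9.77 to 4019, 4389 and 3375 (8.53 ± 0.18). Adenosine receptor genes Adora2a and Adora2b rose by 7.79 and 5.32, and Hcar2, a receptor for hydroxybutyrate, by 7.73. Falls were seen in Cnr2 (cannabinoid receptor), which went from 1131, 1059.6 and 1031 to 4.08, 4.43 and 8.33 (-7.400 ± 0.37), and in Gpr183, the receptor for an oxysterol, which went from 164, 163 and 186 to 12.2, 6.33 and 4.76 (-4.38 ± 0.54). Ch25h, whose enzyme begins the synthesis of that oxysterol, rose from 6.47, 1.29 and 12.2 to 5267, 5536 and 5105 (9.77 ± 0.43). Gpr34, Lpar6 and S1pr1 fell by log2 differences of -4.55, -3.46 and -2.76.

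On the cell surface, 15 of 19 costimulatory and checkpoint ligand genes rose and 2 fell (14 and 2 under all 4 scalings; median log2 3.35). Cd86 went from 121, 126 and 122 to 3396, 3467 and 3994 (4.86 ± 0.09), Cd274 (PD-L1) from 3238 ± 73.5 to 82776 ± 5969.6, and Tnfsf4 (OX40 ligand) rose by 9.23. Vsir (VISTA), an inhibitory ligand, fell from 10943, 11156 and 11741 to 2849, 2712 and 2479 (-2.07 ± 0.06), and Havcr2 (TIM-3) by 1.34. Of 25 adhesion genes 18 rose and 5 fell (12 and 3 under all 4 scalings; median log2 1.07). Icam1 went from 502 ± 29.1 to 89575 ± 4225 and Vcam1 from 44.97 ± 8.002 to 6378 ± 427. The integrin genes moved in both directions: Itgb8, Itgal and Itgav rose by 6.47, 4.29 and 3.14, and Itgb3, Itga6 and Itgb5 changed by -2.01, -1.95 and -1.08.

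Fc receptor and lectin genes were mixed, with 11 of 21 tested raised and 6 lowered (8 and 3 under all 4 scalings; Cd209d and Cd209f were too low to test); the median log2 of 0.25 became -0.49 after scaling by total reads and -0.29 after quantile normalisation. Fcgr1 went from 2524, 2901 and 2648 to 19379, 20099 and 20061 (2.88 ± 0.05), the inhibitory receptor gene Fcgr2b from 3593 ± 169 to 29874 ± 1212, and Fcgr4 rose by 2.64.

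Receptors for dead cells and modified lipoproteins fell more often than they rose, 14 against 8 of 24 (12 and 6 under all 4 scalings), with a median log2 of -0.50. Cd300lb, an activating receptor, went from 8034, 7777 and 7557 to 709, 777 and 675 (-3.43 ± 0.05). Gas6, the bridge from dying cells to TAM receptors, went from 9753 ± 881 to 3477 ± 472 (-1.49 ± 0.11), and Mertk, a TAM receptor kinase, from 2013, 2154 and 2103 to 1182, 1129.9 and 1217 (-0.83 ± 0.05, adjusted p = 1.3e-13). Its relative Axl rose from 717, 756 and 794 to 4476, 4392 and 4243 (2.53 ± 0.05). Trem2, Lrp1 and Stab1 fell by log2 differences of -0.77, -0.99 and -0.92. Against the majority, the scavenger receptor genes Olr1 and Msr1 rose by 8.55 and 4.61.

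All 32 type I interferon-stimulated genes tested rose, under every scaling, with a median log2 of 5.03 (1 more, Ifi44l, was too low to test). Rsad2 (ENSMUSG00000020641; chromosome 12, 26442746 to 26456452, minus strand) was 601, 702 and 601 in control and 465551, 441718 and 509556 with LPS (9.54 ± 0.09, adjusted p = 7.6e-29). Mx1 went from 111 ± 23.8 to 79585 ± 7135, and Oasl1 rose by 8.91. The 15 guanylate-binding protein and p47 GTPase genes tested also rose, 14 of them under all 4 scalings, with a median of 6.96. The entry that the deposited table names Gbp5, whose identifier ENSMUSG00000040264 is Gbp2b in GENCODE, went from 65.2, 73.5 and 95.3 to 120539, 122129 and 136564 (10.66 ± 0.12). Members of these families are similar in sequence, and the way reads with several matches were counted is not given in the sources used here, so the shares of single members (Tgtp1 and Tgtp2, for instance) are uncertain.

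Promoter sequences are shown for 4 genes of these groups because the letters recognised by NF-kB, by interferon-activated factors and by AP-1 can be read in them. Each run holds the 250 bases before the transcription start from RefSeq (GRCm38.p6), 5′ to 3′ on the strand of the gene, with matches to the motifs GGGNNTTTC (NF-kB), GAAANNGAA (interferon-stimulated response element, ISRE) and TGANTCA (AP-1) on either strand in capitals. Il6 lies at chr5:30012864-30013113 (plus strand), Nfkbia at chr12:55492648-55492897 (minus), Cxcl10 at chr5:92348890-92349139 (minus) and Rsad2 at chr12:26456453-26456702 (minus).
Il6: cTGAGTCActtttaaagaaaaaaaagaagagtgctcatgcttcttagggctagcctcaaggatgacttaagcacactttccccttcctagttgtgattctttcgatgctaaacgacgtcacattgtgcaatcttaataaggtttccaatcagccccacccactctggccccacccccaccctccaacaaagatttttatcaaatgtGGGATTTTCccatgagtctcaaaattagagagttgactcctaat
Nfkbia: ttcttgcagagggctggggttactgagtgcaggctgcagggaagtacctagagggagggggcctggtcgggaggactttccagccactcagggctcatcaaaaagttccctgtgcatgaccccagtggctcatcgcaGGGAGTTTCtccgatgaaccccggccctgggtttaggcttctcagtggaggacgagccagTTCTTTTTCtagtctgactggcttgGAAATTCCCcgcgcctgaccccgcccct
Cxcl10: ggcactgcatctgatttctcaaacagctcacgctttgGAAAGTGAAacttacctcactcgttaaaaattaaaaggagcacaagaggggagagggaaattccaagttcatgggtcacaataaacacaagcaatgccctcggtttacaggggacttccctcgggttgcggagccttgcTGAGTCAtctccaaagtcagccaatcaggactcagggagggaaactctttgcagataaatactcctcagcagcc
Rsad2: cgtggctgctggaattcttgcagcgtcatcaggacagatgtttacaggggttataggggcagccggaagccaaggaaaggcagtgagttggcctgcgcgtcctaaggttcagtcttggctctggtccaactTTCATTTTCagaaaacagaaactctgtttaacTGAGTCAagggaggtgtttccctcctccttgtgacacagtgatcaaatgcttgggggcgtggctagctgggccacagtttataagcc
The NF-kB match of Il6 spans bases 44 to 36 before the start, and those of Nfkbia bases 113 to 105 and 28 to 20. The ISRE match lies 213 to 205 bases before the start in Cxcl10, 119 to 111 in Rsad2 and 53 to 45 in Nfkbia. Cxcl10, Rsad2 and Il6 also hold an AP-1 match. Only these patterns were searched, and sites with other letters stay in lower case. The lack of an NF-kB match in Cxcl10 and Rsad2 therefore does not mean that no such site is present. Il6 itself was 1.62, 1.29 and 9.77 in control and 10505, 10163 and 11491 with LPS, and Cxcl10 was 34.5, 43.9 and 103 and 203678, 205988 and 226013.

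Over all promoters, 11928 of the 18637 genes tested had an entry. An ISRE match stood in 7.86% of them, in 23.1% of the 338 genes raised at least 16-fold, in 12.8% of the 1826 raised at least 2-fold, in 7.28% of the 4466 genes not called and in 6.25% of the 2176 genes lowered at least 2-fold. In the same order, these shares were 5.87%, 15.1%, 8.82%, 5.84% and 5.56% for AP-1, and 4.54%, 8.88%, 6.68%, 3.94% and 4.96% for NF-kB. The TATA box (TATAAA) stood in 8.62%, 17.2%, 11.1%, 9.85% and 7.44%. The cyclic AMP response element (TGACGTCA) stood in 2.94%, 1.48%, 3.01%, 2.89% and 2.25%, and the E-box (CACGTG) in 9.37%, 6.21%, 8.87%, 8.33% and 9.7%. A match is a description of the letters and not of a bound factor; Ptgs2 and Il12b, for instance, held none of the 6 motifs in this window. Both strands were searched, and sites with letters other than these patterns, such as other forms of NF-kB sites, were not counted. No motif contains another, although NF-kB and ISRE matches can share the letters GAAA, and the AP-1, cyclic AMP and E-box motifs read the same on both strands.

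Every one of 20 MHC class I, proteasome and peptide loading genes rose (16 under all 4 scalings; median log2 2.64). Nlrc5, the activator of class I genes, went from 793, 818 and 725 to 20125, 19347 and 20713 (4.69 ± 0.06), and the peptide transporter gene Tap1 from 952 ± 35.1 to 18708 ± 1213. Class II genes rose less: 9 of 11 passed and none fell, but only 4 did under all 4 scalings, and the median of 0.74 became -0.02 after scaling by total reads. Ciita, the class II activator, went from 63.1, 53.5 and 53.7 to 346, 337 and 331 (2.56 ± 0.09), and H2-Ab1 from 513 ± 32.3 to 1378 ± 107.

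Of 18 eicosanoid genes tested 7 rose and 7 fell (4 and 7 under all 4 scalings; median log2 -0.44; Ptgis and Ptgds were too low to test). Ptgs2, the inducible cyclooxygenase, was 13.5, 13.5 and 48.8 in control and 126935, 120203 and 142030.5 with LPS, and the prostaglandin E synthase gene Ptges went from 14.6, 10.3 and 24.4 to 4003, 4393 and 3763 (7.94 ± 0.24). Ptgs1, the constitutive cyclooxygenase, fell from 568, 595 and 539.8 to 188, 213 and 224 (-1.45 ± 0.11). Hpgds, the prostaglandin D synthase, fell from 7618 ± 439.6 to 1772 ± 30.1, and Hpgd, which breaks prostaglandins down, from 256 ± 18.8 to 58.3 ± 9.55. Lta4h, of the leukotriene branch, fell by 1.03.

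In arginine metabolism 10 of 20 genes rose and 7 fell (8 and 2 under all 4 scalings), with a median log2 of 0.41 that became -0.36 after scaling by total reads. Slc7a2, the arginine importer, went from 341, 402 and 322 to 45456, 47333 and 53439 (7.099 ± 0.09). Nos2 was 8.63, 16.8 and 39.1 in control and 64219.8, 61389 and 54884 with LPS, and Arg1, which competes for arginine, was 3.23, 2.58 and 2.44 and 28.5, 28.5 and 45.2 (3.197 ± 0.47, adjusted p = 2.7e-06). Ass1, which remakes arginine from citrulline, and Gch1, which makes the cofactor of nitric oxide synthase, rose by 5.04 and 4.07. Spr, also of the cofactor pathway, fell by 1.25.

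Of 25 glycolysis genes 16 rose and 5 fell (11 and 4 under all 4 scalings; median log2 0.99). The glucose transporter gene Slc2a1 went from 560.2, 589 and 618 to 6596, 6735 and 5611 (3.42 ± 0.08), while Slc2a3 went from 204, 250.2 and 237 to 65.2, 36.7 and 44.03 (-2.26 ± 0.73). Slc2a6 and Hk2 rose by 5.598 and 3.51. The isoforms of 1 regulator diverged: Pfkfb3 rose by 4.93, and Pfkfb2 and Pfkfb4 changed by -2.43 and -1.28. The medians of TCA cycle and oxidative phosphorylation genes moved little, and their direction hung on the scaling. The TCA cycle list, which also held Irg1 and cytosolic genes such as Idh1, had a median of -0.09. It became 0.33 after median centring and -0.85 after scaling by total reads. Of its 34 genes 9 were raised and 14 lowered (2 and 6 under all 4 scalings), where 25.5% and 27.8% of all genes tested were. Single members ranged from -4.08 to 11.38 (Irg1), with 2 raised and 6 lowered at least 2-fold. Oxidative phosphorylation genes had a median of 0.23, which turned to -0.06 after quantile normalisation and -0.54 after scaling by total reads, and none of the 36 was called in 1 direction under all 4 scalings. Idh1, the cytosolic isocitrate dehydrogenase, stood out with a fall from 11308, 11646 and 10273 to 1602, 1657 and 1833 (-2.71 ± 0.09), as did the pyruvate dehydrogenase kinase gene Pdk2, from 260.4, 277 and 283 to 8.15, 19.6 and 21.4 (-4.08 ± 0.35).

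Sterol and fatty acid synthesis genes were divided, with 13 of 35 tested raised and 14 lowered (3 and 6 under all 4 scalings). Over all genes tested 25.5% were raised and 27.8% lowered. The median of -0.26 for the list became 0.16 after median centring. The desaturase gene Scd2 fell from 1628, 1641 and 1629 to 118, 97.5 and 79.7 (-4.06 ± 0.19), and Dhcr7, of the last step of cholesterol synthesis, from 616, 676 and 681 to 85.6, 79.8 and 90.4 (-2.93 ± 0.22). Of 34 nuclear receptor and lipid export genes 21 fell and 8 rose (16 and 5 under all 4 scalings; median -0.52; Ppara was too low to test). Rxra, the shared partner of many nuclear receptors, fell from 939, 1011 and 1160.2 to 179, 159.5 and 108 (-2.82 ± 0.12), and the sterol exporter gene Abcg1 from 7344 ± 686 to 1996 ± 137. Nr4a3, an inducible orphan receptor, rose from 8.796 ± 5.07 to 804 ± 67.2.

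Of 25 genes of metal handling 15 rose and 7 fell (12 and 7 under all 4 scalings; median log2 1.39). Slc40a1, which encodes ferroportin, the iron exporter, fell from 1422, 1414 and 1319 to 20.4, 18.99 and 32.1 (-5.84 ± 0.21, adjusted p = 9.0e-18). Tfrc, which imports transferrin-bound iron, fell as well, from 14791 ± 504 to 6721 ± 673, and Steap3 by 3.43. Lcn2, which binds bacterial siderophores, went from 68.5, 49.7 and 56.2 to 1259.6, 1357 and 1141 (4.42 ± 0.18). The zinc importer gene Slc39a14 and the copper importer gene Slc31a1 rose by 3.98 and 2.49, and the metallothionein gene Mt2 by 6.600.

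NRF2 antioxidant genes had 12 of 24 raised and 11 lowered (7 and 3 under all 4 scalings); the median of 0.02 became -0.75 after scaling by total reads. The cystine transporter gene Slc7a11 went from 56.6, 62.6 and 58.6 to 3493, 3545 and 3732 (5.898 ± 0.097) and the mitochondrial superoxide dismutase gene Sod2 from 1067 ± 37.1 to 32902 ± 2288, while catalase (Cat) fell by 1.11. Of 35 lysosome and autophagy genes 21 fell and 11 rose, but 10 and 2 under all 4 scalings, and the median of -0.21 became 0.21 after median centring. Tfeb, the master factor of lysosome genes, fell from 666, 679.7 and 1011 to 118, 133 and 74.97 (-2.86 ± 0.204), and the autophagy kinase gene Ulk1 from 855, 816 and 989 to 249, 211 and 157 (-2.12 ± 0.16). The cathepsin gene Ctsc rose from 3069.8 ± 207 to 39101 ± 2947.

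**Figure D4:**
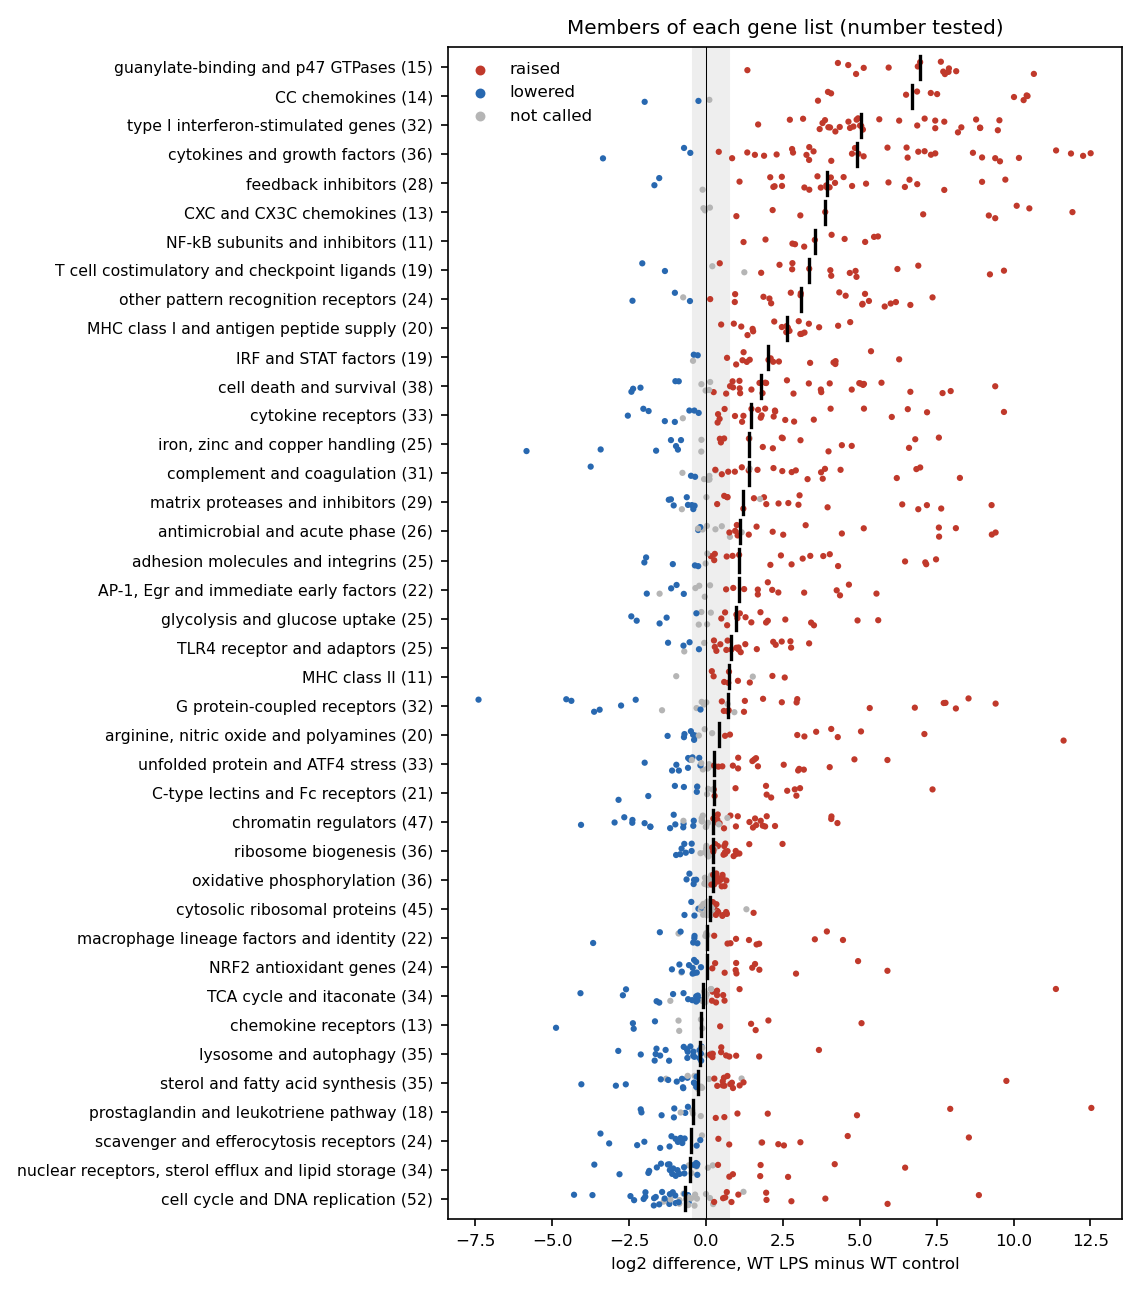
Log2 difference of WT LPS minus WT control for each tested member of 40 gene lists (points, coloured by call), with the list's median as a black bar and the number tested in brackets. The grey band, from -0.42 to 0.75, marks the median shift over all genes, with its sign turned, under median centring and under scaling by total reads; the shift differs by gene, and the medians of the interferon, chemokine and feedback lists lie far to its right.

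Of 52 cell cycle and replication genes 23 fell and 12 rose (18 and 6 under all 4 scalings), with a median of -0.67. The replication factors Mcm2, E2f2 and Gmnn went from 205 ± 14.8, 156 ± 9.08 and 412 ± 40.9 to 40.3 ± 9.01, 7.54 ± 3.67 and 31.5 ± 8.12. Against this direction, Cdkn1a, which encodes the cell cycle inhibitor p21, rose from 968, 1083 and 1016 to 59838, 62224 and 61360.2 (5.902 ± 0.05), Ccnd2 from 25.3, 27.1 and 24.4 to 12388, 12438 and 12526 (8.87 ± 0.18) and Mki67 from 151, 152 and 161 to 2360.2, 2239 and 2261 (3.88 ± 0.09). The mitotic genes Ccnb1, Plk1 and Aurka did not pass (adjusted p = 0.2, 0.39 and 0.086). Cytosolic ribosomal protein genes had a median of 0.13, which turned to -0.10 after quantile normalisation and -0.63 after scaling by total reads; none of the 45 was called in 1 direction under all 4 scalings, and their many processed copies make single values uncertain. Ribosome biogenesis genes had a median of 0.23 (-0.53 after scaling by total reads), with 18 of 36 raised and 7 lowered and 4 and 3 under all 4 scalings.

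Of 33 genes of the unfolded protein and ATF4 response 17 rose and 10 fell (12 and 4 under all 4 scalings), with a median log2 of 0.26 that became -0.23 after quantile normalisation and -0.51 after scaling by total reads. Atf4 itself went from 3164 ± 56.3 to 9366 ± 151, its target Chac1 from 3.77, 3.22 and 9.77 to 163, 177 and 168 (4.82 ± 0.49), and Asns from 384 ± 1.91 to 3138 ± 124. Eif2ak3, which encodes the stress sensor PERK, fell from 829.8, 816 and 828 to 232, 191 and 196 (-1.997 ± 0.17), and Dnajb9 and Pdia4, targets of the unfolded protein response, fell by 1.11 and 0.97.

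Of 38 cell death genes 29 rose and 5 fell (23 and 4 under all 4 scalings; median log2 1.79). Genes for both survival and death were among them. Cflar, an inhibitor of caspase 8, went from 2151, 2251 and 1964 to 68015, 62865 and 70261 (4.98 ± 0.07), and the necroptosis effector gene Mlkl from 244, 269.6 and 210.0 to 7925, 7660.0 and 7990.2 (5.03 ± 0.07). Casp4, the mouse caspase 11 that binds cytosolic LPS, went from 453, 420.5 and 403 to 10990.0, 10604 and 12577 (4.74 ± 0.08). Casp9, the initiator of the mitochondrial pathway, fell from 1698, 1657 and 1773 to 330.2, 350.1 and 308 (-2.37 ± 0.098), and Bcl2 by 2.13. The Bcl2a1 genes are close copies of each other, so Bcl2a1a, Bcl2a1b and Bcl2a1d, with rises of 7.95, 3.73 and 7.69, cannot be read apart with confidence.

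Among 31 complement and coagulation genes tested 20 rose and 3 fell (14 and 1 under all 4 scalings; Cfi was too low to test; median log2 1.39). C3 went from 577, 683 and 574 to 46214, 45626 and 43016 (6.202 ± 0.06). Thbd, which encodes the anticoagulant thrombomodulin, fell from 546, 605 and 549.5 to 61.1, 37.98 and 29.8 (-3.75 ± 0.199). Tissue factor (F3) rose by 3.74 and F10 by 4.37. Of 29 matrix proteases and protease inhibitors 18 rose and 8 fell (12 and 4 under all 4 scalings; median log2 1.21), with Mmp13 going from 189 ± 33.4 to 37859 ± 4933, Mmp14 from 55.5 ± 9.61 to 8139.7 ± 760.3 and Timp2 from 19932 ± 256 down to 9606 ± 289. Of 26 antimicrobial and acute phase genes 17 rose and 2 fell (12 and 0 under all 4 scalings; median log2 1.10). The acute phase gene Saa3 went from 32.9, 72.2 and 48.8 to 30858, 32071 and 30806 (9.29 ± 0.202), and Cybb, the catalytic subunit of the phagocyte oxidase, from 28471 ± 1896 to 162273 ± 16382.

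Of 47 chromatin regulators tested 22 rose and 15 fell (14 and 13 under all 4 scalings; Cited1 was too low to test), with a median log2 of 0.23 that became -0.20 after quantile normalisation and -0.53 after scaling by total reads. The histone H3 lysine demethylase gene Kdm6b went from 60.9, 63.8 and 73.3 to 1276, 1446 and 1163 (4.27 ± 0.14), and the methyltransferase gene Setdb2 from 292, 309 and 286 to 4932, 4719.7 and 5297 (4.07 ± 0.09). Hdac5, a histone deacetylase, fell from 1283, 1330.4 and 1734 to 110.1, 89.3 and 61.9 (-4.07 ± 0.25), and the DNA methyltransferase genes Dnmt1 and Dnmt3a fell by 1.999 and 1.81. Cited2 was 2298, 2179 and 2144 in control and 3139, 3468 and 4174 with LPS and was not called (adjusted p = 0.088), a log2 difference of 0.69 ± 0.34. Its call depended on the fit: a rise was called by edgeR and DESeq2 on the recovered reads, with library weights, after median centring (1.11), in the fits of 12 or 6 libraries, with a pseudocount of 8 and without KO LPS replicate 1, and the difference was -0.07 after scaling by total reads. The SE of the main fit pools the spread of all 24 libraries, KO cells included, where Cited2 was low (values are given below). In KO LPS replicate 1, 1 read was a value of 23.6.

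Of 69 markers of other cell types tested, 16 rose and 9 fell, where 25.5% and 27.8% of all genes tested did so. Of 11 fibroblast and stromal markers 5 rose and 0 fell, and of 14 neutrophil markers 4 rose and 4 fell. Of 8 dendritic cell markers 2 rose, and of 8 B cell markers 2 fell. Of 5 erythroid and megakaryocyte markers 1 rose and 1 fell. Of 8 mast cell and basophil markers, 1 rose, Kit fell and 6 were not called; the one that rose was Hdc, the histidine decarboxylase of mast cells and basophils, at 6.38 ± 2.94 in control and 1133 ± 50.01 with LPS. Of 15 T and NK cell markers 3 rose, Il7r fell and 11 were not called; those that rose were Gzmb, Eomes and the kinase gene Lck, which stood at 8.87 ± 1.47 in control and 543 ± 27.5 with LPS. Their part in the results was not tested.

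Set directly against IFNg, 3586 genes were higher with LPS, 19.2% of those tested, and 3544 lower, 19%. Il10 showed the largest excess: its values were 2.69, 2.28 and 0.355 with IFNg, far below those with LPS given above, a log2 difference of 10.89 ± 0.48 (adjusted p = 2.0e-15). Il1b was 54.7, 64.96 and 59.7 with IFNg and 78724, 80185 and 78569 with LPS (10.35 ± 0.32). Ccl3, Ccl4, Cxcl1, Cxcl3, Il1a and Edn1 were higher with LPS by 8.31, 8.303, 8.31, 8.097, 8.11 and 8.28. In the other direction, Ubd, which encodes the ubiquitin-like modifier FAT10, was 832, 902 and 875 with IFNg and 20.4, 3.17 and 10.7 with LPS (-6.42 ± 0.53), and the vitamin D receptor gene Vdr was 624, 589 and 609 and 4.08, 7.596 and 7.14 (-6.42 ± 0.74). Cnr2, lowered by LPS, was 1573, 1511 and 1495 with IFNg (-7.91 ± 0.37). Clec9a, Tlr12, Bcl2l14, Rnase6 and Gja4 were lower with LPS by log2 differences of -7.58, -7.59, -7.55, -7.46 and -7.499.

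Several groups separated the 2 stimuli. All 11 NF-kB genes were higher with LPS (median log2 difference 1.26), as were 28 of 36 cytokine genes (2.32), 22 of 28 feedback inhibitors (1.94) and 31 of 32 type I interferon-stimulated genes (1.78). The median over all genes tested was -0.04, and -0.29 after scaling by total reads, which left 9 of the 11 NF-kB genes called; the medians of these groups and of the next 2 kept their direction under all 4 scalings. None of the 11 class II genes was higher with LPS and 8 were lower (median -2.18); Ciita was 5361, 5142 and 5363 with IFNg, a difference of -3.96 ± 0.09. Guanylate-binding protein and p47 GTPase genes were lower in 10 of 15 cases and higher in 3 (median -1.30). None was higher after quantile normalisation or scaling by total reads. The entry named Gbp5 (Gbp2b in GENCODE) was 113483 ± 3612 with IFNg and was not called (adjusted p = 0.37). For Nos2, Il12b and Cd40 the LPS minus IFNg differences were 1.002 ± 0.27, 0.87 ± 0.48 and 0.15 ± 0.13 (adjusted p = 0.0039, 0.17 and 0.42). Mertk was 3668, 3959.7 and 3881 with IFNg, above every LPS value (-1.704 ± 0.05, adjusted p = 2.8e-19).

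**Figure D5:**
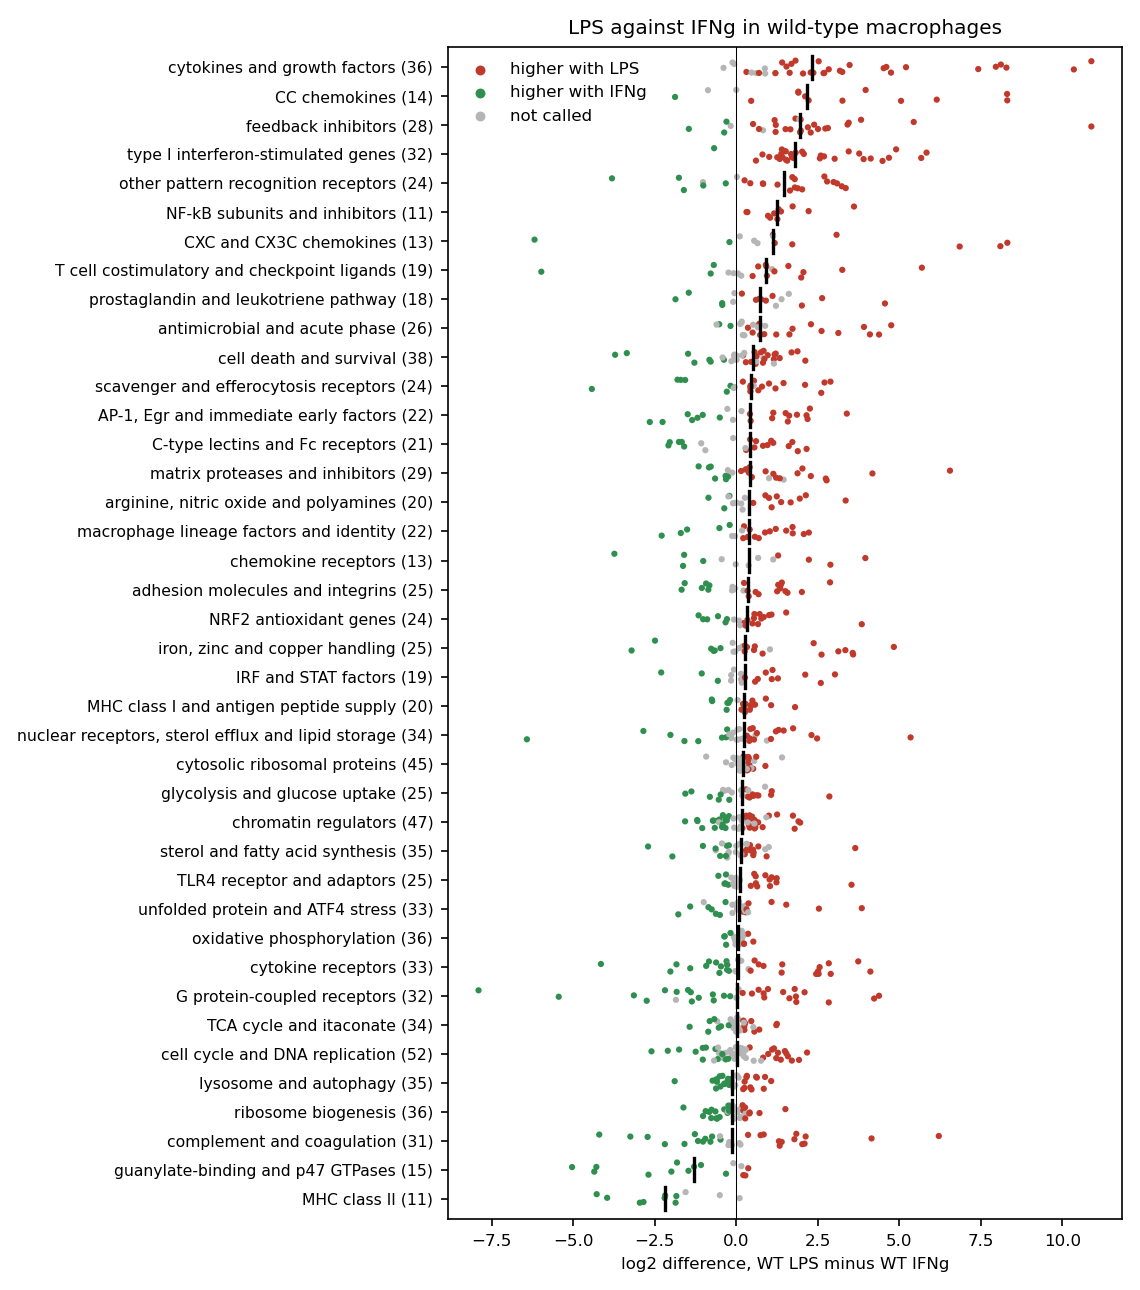
Log2 difference of WT LPS minus WT IFNg for each tested member of 40 gene lists, coloured by call (red, higher with LPS; green, higher with IFNg), with the median as a black bar. Cytokine, feedback and type I interferon lists lie to the right, and MHC class II and guanylate-binding protein lists to the left.

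The same change was measured in cells without CITED2, from other libraries of the same series, where 4571 genes were raised (24.5%) and 6060 lowered (32.5%). Cited2 itself was 27.9 ± 10.4 in KO control and 48.7 ± 39.9 in KO LPS cells (SD, n = 3). Of the 2639 genes raised at least 2-fold in WT cells, 2207 (83.6%) were also raised in KO cells and 4 lowered, and of the 2988 lowered genes 2611 (87.4%) were also lowered and 1 raised. KO LPS replicate 1 held 1478507 reads, and without it these counts were 2344 and 1, and 2568 and 3. A test of the difference between genotypes called 1639 genes (8.79% of those tested), 800 with a higher (4.29%) and 839 with a lower change (4.5%) in KO cells. Mertk, lowered in WT cells, was 1891 ± 35.4 in KO control and 5408 ± 203 in KO LPS cells, a difference between genotypes of 2.34 ± 0.07 (adjusted p = 5.7e-17). Slc40a1 changed in KO cells by -4.49, a difference of 1.35 ± 0.29 (adjusted p = 0.0036). Socs3 and Cebpa changed in KO cells by 9.65 and -3.86, and their differences between genotypes were not called (adjusted p = 0.79 and 0.49).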

How the data were processed

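The 24 RNA libraries of mouse bone marrow-derived macrophages form 8 groups of 3. Per the submitters' processing notes, TopHat2 2.2.1, Cufflinks 2.2.1, Cuffdiff and the mm10 (GRCm38) build were used; roles and settings are not given in the sources used here. The deposited values are a normalised signal, gene read counts that the authors divided by 1 factor per library: 100% of values came out whole within 0.05 reads once multiplied back, and on these reads edgeR 4.0.16 called 4926 genes raised and 5649 lowered, and DESeq2 1.42.0 4739 and 5251. Main values came from limma 3.58.1 in R 4.3.3, with a mean-variance trend on log2(value + 1), which understates changes of low genes. All 24 libraries entered with 1 mean per group and 16 residual degrees of freedom, and p-values were Benjamini-Hochberg adjusted over the 18637 genes that reached a value of 1 in 3 libraries. The fit was also run on simulated data in which few genes changed, equally up and down. That setting could not test the scaling of the libraries.

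Coordinates and exon lengths are those of GENCODE M21 (GRCm38), which held 18472 of the genes tested; promoters are from RefSeq. Named genes were the 12 largest rises and 12 largest falls whose values did not overlap between groups, up to 6 members of each list in each direction by p, members that went against their list or did not pass, the highest values and largest gains and losses, the 8 largest differences from IFNg each way, and a fixed set of sensors, cytokines and regulators. Members, lists and motifs were chosen with earlier results of these data known. Outside this rule, and chosen after their values were seen, are Adora2a, Ass1, Bcl2a1a, Bcl2a1b, Bcl2a1d, Casp4, Chac1, E2f2, F3, Il27, Inhba, Itgav, Itgb8, Junb, Lrp1, Mcm2, Nod1, Nod2, Oasl1, Rela, Spi1, Stab1, Tfeb, Tnfsf10, Tnfsf4, Trem2 and Ulk1. Alternatives covered pseudocount, filter, scaling, tool, libraries fitted, library weights, a replicate block and single libraries left out; the remaining groups entered the fit only. A few genes that the rule names are not reported here.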

Additional observations from a re-analysis of the deposited data

Results flagged for a closer look

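The genes named in the report were examined for a difference of their LPS change between KO and WT cells, by the interaction term of the same limma fit (Benjamini-Hochberg adjusted over all genes tested). Of 227 named genes, 78 were called, against 8.79% of all genes tested; the named genes were chosen by their LPS change and function. The LPS change was higher in KO than in WT cells for 45 and lower for 33 (4.29% and 4.5% of all genes tested), and 76 of the 78 were called without KO LPS replicate 1, which held 1478507 reads (Irf7 and Nfkbia were not). The same direction was called under all 4 scalings for 51 of the 78; Il6, Cxcl10, Cxcl1, Cd40, Nfkbia, Rela and Spi1 were among those that were not. Over all genes, these calls fell from 800 and 839 to 466 and 396 when only the 12 control and LPS libraries were fitted. Both changes come from separate sets of 6 libraries, and values are KO minus WT differences in log2 change. For genes that LPS lowered in both genotypes, a higher change in KO cells was a smaller fall. A lower change was a deeper fall.

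The sign of the change differed in 3 genes. Mertk went down in WT cells and up in KO cells (2.34), and the same signs were found for Tlr4 (0.65), whose WT call depended on the fit, and the early factor gene Egr1 (1.93; -1.14 in WT and 0.796 in KO cells, adjusted p = 0.0082 for the KO change). The change of Arg1 was 3.197 in WT and 0.12 in KO cells (-3.08 ± 0.67 SE).

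Among genes with a higher change in KO cells, Ifnb1 differed by 2.83 and Il6 by 2.35, with SEs of 0.61 and 0.68. Nos2 (1.57), Cxcl1 (1.41), Ccl2 (1.32), Cxcl10 (1.23), Hcar2 (1.29), Tnfsf9 (1.11), the entry named Gbp5 (1.07, Gbp2b in GENCODE) and Cd86 (1.01) differed by more than 1. Differences below 1 were found for Nlrp3 (0.93), Ccl3 (0.896), Icam1 (0.89), Ifih1 (0.798), Mx1 (0.77), Cd40 (0.75), Cxcl2 (0.75), Tlr2 (0.74), Il1a (0.73), Ccl4 (0.64) and Cd14 (0.45). Regulators that rose further were Nr4a3 (2.35), Nfkbiz (0.91), Ciita (0.67), Il1rn (0.55), Rela (0.46), Cflar (0.42), Irf1 (0.297) and Nfkbia (0.26).

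Other genes with a higher change in KO cells were of mixed function. They were the coagulation starter F3 (1.66), the growth genes Mki67 (1.39) and Ccnd2 (1.23), the iron exporter gene Slc40a1 (1.35) and the survival gene Bcl2 (1.11). Rasgrp3 (1.09), Ctsc (0.703), Slc2a6 (0.66), Asns (0.56), Tlr13 (0.44), Hpgds (0.39), Axl (0.28) and Atf4 (0.26) completed them. Slc40a1, Bcl2, Rasgrp3, Tlr13 and Hpgds fell with LPS in both genotypes, and less far in KO cells.

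A lower change in KO cells was found for Ptges (-2.54), the prostaglandin E synthase gene, for the integrin genes Itgb8 (-1.76) and Itgal (-0.45), and for the receptor genes Il6ra (-1.71), Adora2b (-1.46), Cd300lb (-0.91), Fcgr2b (-0.81), Tnfrsf1b (-0.802), Vsir (-0.41), Tgfbr1 (-0.39), Sirpa (-0.38), Fcgr4 (-0.31) and Ccrl2 (-0.26). Growth factor and matrix genes with a lower change were Vegfa (-1.28), Mmp14 (-1.02), Mmp13 (-1.002) and Csf1 (-0.42). The transporters and metabolic genes were Slc39a14 (-1.18), Pfkfb3 (-1.04), Slc2a1 (-0.995) and Gch1 (-0.33). Among factors and signalling genes they were Tfeb (-1.05), Casp9 (-0.91), Ikbke (-0.81), Eif2ak3 (-0.81), Cebpb (-0.67), Tnfaip8l2 (-0.65), Spi1 (-0.61), Dnmt3a (-0.53), Irf7 (-0.503), Neat1 (-0.45) and Tnfaip3 (-0.305). Il6ra, Cd300lb, Vsir, Tgfbr1, Sirpa and Vegfa fell with LPS in both genotypes, and further in KO cells. So did Tfeb, Casp9, Eif2ak3, Tnfaip8l2, Dnmt3a and Neat1. The other genes of this paragraph rose in both genotypes, and less far in KO cells.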

How the results depend on the processing

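Of 227 named genes, 221 to 227 kept their call, or stayed uncalled, under each of 21 alternatives. For genes that stayed uncalled, the sign of the difference was not counted. Among called genes, direction turned for Csf1r (0.038) and Tlr4 (0.19), both after median centring. The uncalled difference of Cited2 changed sign after scaling by total reads. The cause was not tested. Counts of genes called raised and lowered with LPS moved most with scaling. Median centring gave 3065 lowered genes, and 4007 raised and 1788 lowered at least 2-fold. Scaling by total reads, an alternative chosen after seeing the data, gave 2478 and 9311, at least 2-fold 1699 and 6213, and against IFNg 2129 higher and 6207 lower. The deposited factors matched median-of-ratios factors, the kind DESeq2 computes, within 5.5e-09%. DESeq2 and the other filters, pseudocounts and fits therefore kept the deposited scaling and could not test it, while edgeR used factors of its own. No gene was called in opposite directions by the main fit and by any of these. Opposite calls were made for 122 genes after median centring, 453 after quantile normalisation and 1180 after scaling by total reads. Of 94 counts of list members raised or lowered, 28, 20 and 38 moved by over 1.5 times under these 3 scalings.

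For the difference between genotypes, library weights gave 1494 genes higher and 1261 lower in KO cells, and the fit of the 12 control and LPS libraries alone, also added after seeing the data, 466 and 396. Scaling by total reads gave 1590 lower, and leaving out KO LPS replicate 2 gave 1330 lower; the cause was not tested.

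Leaving out the 2 shallowest WT libraries, added after seeing the data, moved no total of genes raised or lowered with LPS by over 1.5 times, but did so for 10 of the 94 counts of list members. With 1 library left out at a time, genes raised with LPS numbered 4420 to 5132 and lowered 4740 to 5849, at least 2-fold 2438 to 2831 and 2686 to 3304. Against IFNg the ranges were 3210 to 4084 higher and 3082 to 4340 lower, and for the difference between genotypes 638 to 1031 and 640 to 1330. With a replicate block, 4675 genes were raised and 5100 lowered. Deviations from the group mean correlated at -0.21, -0.20 and -0.42 over 9262 genes between control and LPS libraries of the same number. Deviations from a mean of 3 libraries are tied to each other, so these values cannot tell whether the numbers are a pairing. The main fit assumed none. Tlr4 alone of the named genes lost its call in the limma fit with the block (adjusted p = 0.058). The depth of the shallowest libraries limits genes at a few reads, and the labels do not tell separate animals from repeat libraries.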
